A study of Mus musculus with 54 samples.

Results

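At week 40 on normal chow, 3 arrays of C57 aorta were set against 3 arrays of C3H aorta, 6 of the 54 arrays of the study, chosen by the group in their titles. C57 stands for C57Bl/6 mice and C3H for C3H/HeJ mice, and neither group received the high-fat diet given to other mice of the study. The same comparison at week 0, the baseline, used 3 C57 and 3 C3H arrays that also carry the chow label. Each array is a 2-colour array with total RNA of aorta in one channel and total RNA of mouse embryos at embryonic day 17.5 in the other, so the strains were compared through their ratios to one common RNA. The whole study holds 18 groups of 3 arrays, from 2 strains, 5 weeks on chow (0, 4, 8, 24 and 40) and 4 weeks on high-fat diet. The labels do not state age, sex or whether an array holds 1 animal or a pool, so the p-values measure only the spread between arrays, which may be technical.

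C57Bl/6 is an inbred strain that forms fatty lesions in the aortic wall on a high-fat diet rich in cholesterol, and C3H/HeJ is an inbred strain known to resist them. C3H/HeJ also carries a defect in Tlr4, the receptor for bacterial lipopolysaccharide. The aortic wall has an inner lining of endothelium, a middle layer of smooth muscle between elastic sheets and an outer layer of connective tissue, and whole-aorta RNA mixes all of them. Mice kept on chow show how far the strains differ without the lesion-forming diet, and the oldest group shows how far a difference present at the start was still there 40 weeks later.

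Array features are given by number only. The platform annotation pairs numbers with gene symbols, but the mean ratios of 953 pairs of features that share a symbol correlated at -0.0037, so its names were not borne out by the values. For the same reason the labelled tissue could not be checked against markers of smooth muscle, endothelium or blood, and no sequence is attached to a feature. All values are deposited log ratios after each array was centred on its median. The base is likely log10, and the direction of the ratio (aorta over embryo or the reverse) is unknown, so "higher in C57" means higher in the deposited value, and all signs would turn together if the ratio ran the other way.

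One of the 6 arrays stood apart. Its log ratios were spread less widely: their SD was 0.175 on C57 replicate 1, 0.278 on C57 replicate 2 and 0.268 on C57 replicate 3, and 0.273, 0.278 and 0.282 on C3H replicates 1, 2 and 3. C57 replicate 1 correlated across features with the other 5 arrays at 0.652 to 0.759, whereas those 5 correlated with one another at 0.794 to 0.922. Values without it are given for the counts, the lists and several features.

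The question at week 40 was which features separated C57 from C3H aorta in the oldest chow-fed mice. Feature 4881 had the largest difference among called features with one sign in all 3 replicate numbers, with C57 nearer to the array median than C3H, which lay far below it. Its log ratio was -0.16, -0.05 and -0.38 on the C57 arrays, against -1.30, -1.47 and -1.71 on the C3H arrays. The highest C3H array lay well under the lowest C57 array, and the difference of 1.30 (SE 0.195, limma adjusted p = 6.31e-05) would be a ratio of 19.8-fold if the base is 10. In whole-aorta RNA, a ratio like this cannot separate a different number of cells of a type from a different amount of RNA per cell.

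A second feature higher in C57, number 4070, lay on opposite sides of the array median in the 2 strains. It read 0.70, 0.59 and 0.61 on the C57 arrays, against -0.03, -0.08 and -0.27 on the C3H arrays. The arrays within each strain stayed close together, and the difference was 0.76 (SE 0.0873, limma adjusted p = 2.72e-07). Feature 8223 was about as tight (SE 0.0847), with 0.03, 0.29 and 0.15 on the C57 arrays, against -0.34, -0.43 and -0.47 on the C3H arrays, and C57 replicate 1 was the lowest C57 array there. Its difference was 0.57, and 0.64 without C57 replicate 1.

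The other 5 of the 8 largest differences in that direction were between 0.56 and 0.63, with standard errors of 0.116 to 0.154. Feature 17061 read 0.82, 1.02 and 0.73 on the C57 arrays against 0.41, 0.26 and -0.0037 on the C3H arrays, where replicate 3 was at the array median (difference 0.63, SE 0.154). Feature 9619 read 0.20, 0.47 and 0.28 on the C57 arrays and -0.18, -0.34 and -0.41 on the C3H arrays. In feature 13820 the C3H arrays were the scattered ones, at -0.56, -0.36 and -0.88, while the C57 arrays read 0.07, -0.11 and 0.01. None of these groups overlapped, although number 2 gave feature 13820 a difference of 0.25 and number 3 one of 0.90. Feature 11527 differed by 0.58 and feature 18711 by 0.56, also without overlap. Each of the 5 lost its call in limma when certain single arrays were left out, while all kept their sign. Feature 17061 was not called without any one of 5 of the 6 arrays (adjusted p in limma up to 0.237 without C57 replicate 2), and it stayed called without C3H replicate 1. Feature 9619 had an adjusted p of 0.205 in limma without C57 replicate 2, feature 11527 one of 0.0986 without C57 replicate 3 and feature 13820 one of 0.0904 without C3H replicate 3. Feature 18711 had one of 0.185 in limma without C3H replicate 3 and of 0.0941 without C57 replicate 1. With only the 6 arrays of week 40 in the fit, none of the 5 was called (adjusted p in limma from 0.0645 to 0.294).

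In the 8 largest differences in the other direction, the C3H arrays lay far above the array median. The C57 arrays lay nearer to it, between -0.24 and 0.35. Feature 9352 read -0.01, 0.02 and 0.07 on the C57 arrays, against 1.29, 1.29 and 1.25 on the C3H arrays. Feature 17783 read 0.05, -0.05 and -0.06 on the C57 arrays, against 1.22, 1.21 and 1.19 on the C3H arrays. In both features the arrays of a strain lay far closer to one another than to those of the other strain. The differences were -1.25 (SE 0.0757) and -1.22 (SE 0.0698), with limma adjusted p = 2.15e-15 and 3.90e-16, a ratio of 17.7-fold and 16.7-fold if the base is 10.

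Feature 14540 had the lowest adjusted p of all 21179 features tested. It read -0.24, -0.16 and -0.07 on the C57 arrays, against 1.001, 0.80 and 0.90 on the C3H arrays, a difference of -1.06 (SE 0.0551, limma adjusted p = 3.38e-17). Features 10555 and 12504 had almost the same C3H value on each array, at 0.92, 0.94 and 0.98 and at 0.84, 0.85 and 0.88. The C57 arrays read -0.11, -0.01 and 0.06 in feature 10555, a difference of -0.97. In feature 12504 they read -0.15, 0.04 and 0.13, a difference of -0.85. In both, C57 replicate 1 was the lowest, and without it the differences were -0.92 and -0.77.

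Features 10334, 5406 and 9434 were high on every C3H array but unevenly so. Feature 10334 read 0.14, 0.35 and 0.18 on the C57 arrays, against 0.91, 1.42 and 1.35 on the C3H arrays. Feature 5406 read 0.06, 0.11 and 0.19 on the C57 arrays, against 0.95, 1.29 and 1.01 on the C3H arrays. Feature 9434 owed much of its size to C3H replicate 1, with 0.02, 0.28 and 0.16 on the C57 arrays against 1.21, 0.70 and 0.71 on the C3H arrays. The differences were -1.001, -0.96 and -0.72, and no C57 array reached a C3H array in any of them.

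**Figure D1:**
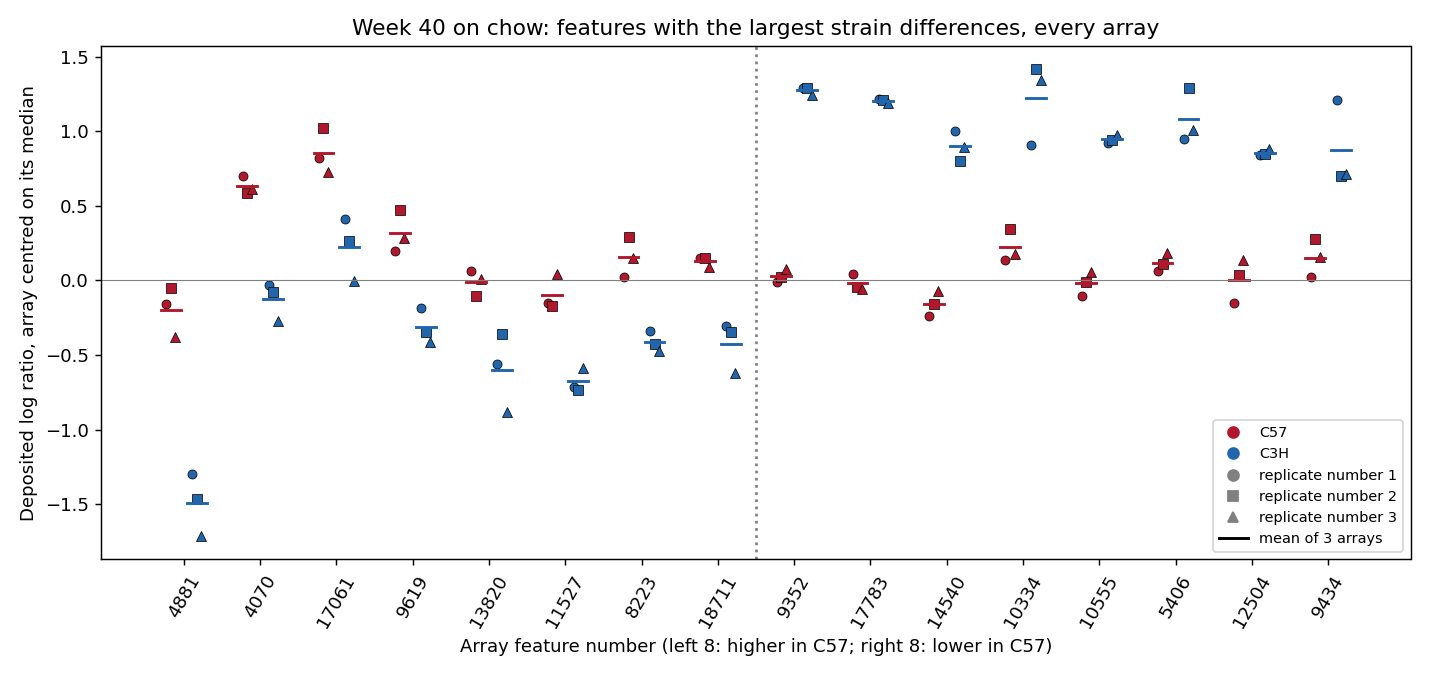
Centred deposited log ratio (vertical axis, deposited units) of the 16 features with the largest strain differences at week 40 on chow, 8 higher in C57 on the left and 8 lower on the right; each point is 1 array, its shape the replicate number, and each short line a mean of 3 arrays. C57 points (red) lie between -0.24 and 0.35 in the 8 features on the right, where C3H points (blue) lie between 0.70 and 1.42, and the strains overlap in none of the 16.

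Across the array, 157 of 21179 features were called at week 40, where called means a limma adjusted p under 0.05. This was 0.741% of the features tested, with 80 higher (0.378%) and 77 lower (0.364%) in C57, and 1611 features had an unadjusted p under 0.05. The median size among the 157 was 0.32, against 0.048 for all features tested, and the smallest called difference was 0.11. Larger sizes among called features follow from the call, which was made on the same arrays. The 156 called features measured on all 6 arrays had no overlap between strains, which the call on the same arrays nearly fixes. Of the 21027 features measured on all 6, 9.66% had none. One sign in all 3 replicate numbers, which the rule for the features above asked for, was seen in 36.6% of those 21027. With the replicate number as a block, the same differences were tested against a smaller spread. The block is an effect of each number shared by all weeks and both diets, so it is not a pairing of the strains within week 40. The number of calls was 686 (3.24%), with 306 above and 380 below C3H, including all 157. A term for number 3 alone gave 625 calls. The count of 157 without the block rested on single arrays in part. It was 88 without C57 replicate 2, 102 without C57 replicate 3, 100 without C3H replicate 2 and 101 without C3H replicate 3. Without C57 replicate 1 it was 129, of which 105 were among the 157. With only the 6 arrays of week 40 in the fit, which leaves few arrays to estimate the spread, 14 features were called. With the block as well, that fit called 4. All 157 kept their sign in every one of these fits.

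The remaining called feature, number 67, was not measured on C57 replicate 2 and is named here after its values were seen. It read 0.08 and 1.24 on C57 replicates 1 and 3, against -0.43, -0.11 and -0.19 on the C3H arrays. Its difference of 0.90 (SE 0.222, limma adjusted p = 0.0442) came largely from C57 replicate 3, and the same feature differed by -0.07 at week 0.

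The called features were then read by their level relative to 0, the array median. Of the 77 lower in C57, 68 had their C57 mean nearer to 0 than their C3H mean, with medians of -0.012 in C57 and 0.33 in C3H. This was 88.3% of them, against 62.6% of all tested features lower in C57, and without C57 replicate 1 it was 90.9% against 55.3%. Of the 80 higher in C57, 55 had their C57 mean nearer to 0, with medians of 0.041 in C57 and -0.25 in C3H. This was 68.8%, against 67.4% of all tested features higher in C57, and without C57 replicate 1 it was 66.2% against 46.4%. The strains had means of opposite sign in 46 of those 80 and in 36 of the 77. By feature number, each of 10 equal runs of tested features held 7 to 23 called features, from 0.331% to 1.09% of the run.

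The strain difference at week 0 was set beside that at week 40, on arrays that the groups do not share. The calls at both weeks used the same fit, in which the spread of a feature was estimated from all arrays of the study. A feature with a small spread is favoured at both weeks, so a call at both is not independent replication. At week 0 limma called 113 features (0.534%). In C57, 67 of them (0.316%) were higher and 46 (0.217%) lower, and the replicate number as a block gave 441 (2.08%). The week 0 count was 65, 67 and 57 without C57 replicates 1, 2 and 3, and 65 without C3H replicate 2. Features called at both weeks numbered 78, which is 49.7% of the week 40 list and 69.0% of the week 0 list, and all 78 had the same sign, 40 higher and 38 lower in C57. Their difference at week 40 was a median of 1.04 times that at week 0, from 0.597 to 1.46 times, and it was the larger of the 2 in 48 of 78. A call at both weeks leaves out features whose difference fell too far to be called, so this ratio is in part fixed by the choice. With the block, 263 features were called at both weeks, all with the same sign, 38.3% of the blocked week 40 list and 59.6% of the blocked week 0 list.

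**Figure D2:**
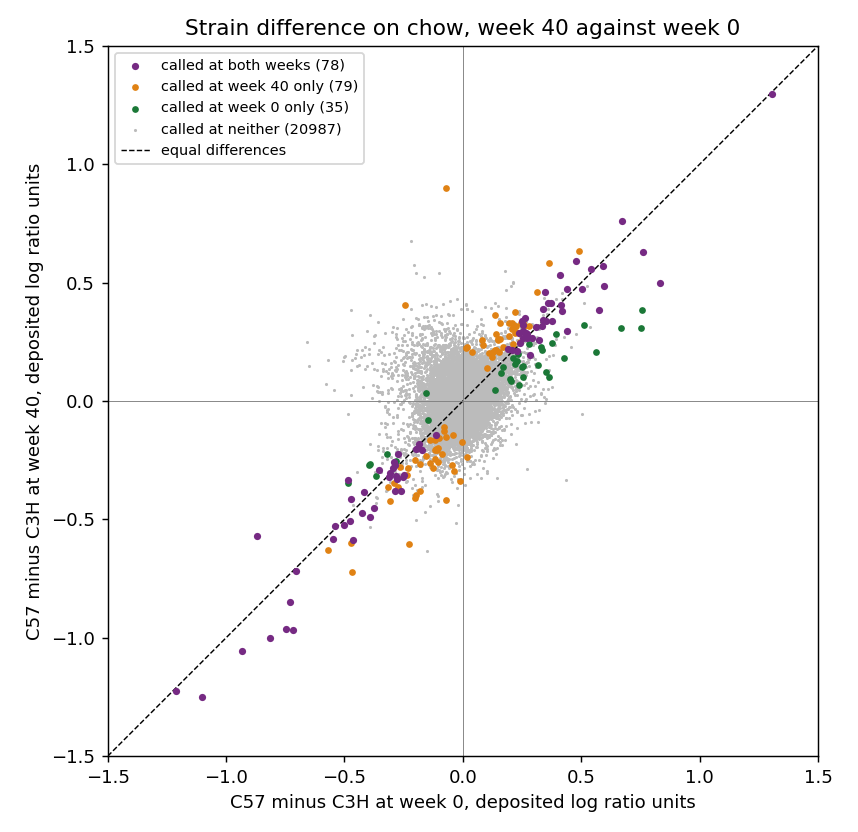
Strain difference C57 minus C3H at week 40 (vertical axis) against week 0 (horizontal axis) for the 21179 tested features, in deposited log ratio units, with features called at both weeks, at 1 week or at neither in different colours. The 78 features called at both weeks follow the dashed line of equal differences, which their choice at both weeks in part fixes, and most grey points lie in a cloud around 0.

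The largest differences of week 40 were mostly those of week 0. Feature 4881 read -0.27, -0.06 and -0.40 in C57 and -1.34, -1.61 and -1.69 in C3H at week 0, a difference of 1.31, so 99.2% of it was kept. Feature 17783 had -0.05, -0.07 and -0.16 in C57 and 1.07, 1.19 and 1.08 in C3H at week 0, a difference of -1.21, so the week 40 difference was 101% of it. These 2 features were near each strain's own level at both ends of the 40 weeks. Feature 9352 had at week 40 114% of its week 0 difference of -1.10, and feature 14540 had 114% of its week 0 difference of -0.93.

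Of the 8 largest differences at week 0, 4 in each direction, 7 were called again at week 40. The 3 not yet described were smaller at week 40. Feature 12763 read 0.23, 0.57 and 0.51 in C57 and -0.07, -0.11 and -0.01 in C3H at week 40, against 0.62, 0.51 and 0.94 in C57 and -0.20, -0.26 and 0.03 in C3H at week 0. Its difference was 0.50 at week 40 and 0.83 at week 0, so 59.7% was kept, and 72.0% (a difference of 0.60) without C57 replicate 1, its lowest C57 array. C57 averaged 0.43 at week 40 and 0.69 at week 0, and C3H averaged -0.065 and -0.15. Feature 1996 read 0.34, 0.80 and 0.73 in C57 and 0.24, 0.28 and 0.19 in C3H at week 40, against 0.91, 1.02 and 1.08 in C57 and 0.20, 0.36 and 0.18 in C3H at week 0. Of its difference 50.7% was kept, and 69.6% without C57 replicate 1. C57 replicate 1 was the low array, and the week 40 difference was 0.38 with it (limma adjusted p = 0.133), 0.53 without it (limma adjusted p = 0.0192), and called with the replicate block (limma adjusted p = 0.0390). Feature 17767 had a difference of -0.57 at week 40 and -0.87 at week 0, so its week 40 difference was 65.4% of that at week 0. Without C57 replicate 1, its highest C57 array, it was 80.2% (a difference of -0.70). The difference of feature 17767 was not held in between, at 0.11, 0.74 and -0.32 at weeks 4, 8 and 24.

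At the other end, 3 of the 16 largest differences at week 40 were not called at week 0, and with the replicate block this held for feature 9434 alone (limma adjusted p = 0.0515). Feature 9434 had a difference of -0.72 at week 40 and of -0.47 at week 0 (limma adjusted p = 0.109 at week 0). The differences of feature 17061 were 0.63 at week 40 and 0.49 at week 0, and those of feature 11527 were 0.58 and 0.36. With the block both were called at week 0, feature 17061 with a limma adjusted p = 2.98e-05 and feature 11527 with 0.00324. All 3 had the same sign at both weeks and no overlap between strains at either week. The 95% interval of the change ran from -0.63 to 0.12 for feature 9434 and from -0.14 to 0.58 for feature 11527, and with the block from 0.0040 to 0.43 for feature 11527, whose change was not called (limma adjusted p = 0.9997).

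How much was kept was then read from lists. The 113 features called at week 0 had a median signed difference of 0.31 at week 40 and of 0.34 at week 0, the week that chose them. The 441 features called at week 0 with the replicate block had smaller medians, 0.186 at week 40 and 0.222 at week 0, with one sign at both weeks in 434. All but feature 972 had the same sign at week 40 (112 of 113), against 61.7% of all tested features. At week 40, 99 of the 113 had no overlap between strains, against the background of 9.66%. At week 0, all 113 were separated, which the call there nearly fixes, against 11.9% of all features measured on those 6 arrays. The median feature kept 95.9% of its difference, 100 kept over 50%, 78 kept over 75% and 48 were larger at week 40. Feature 972 had 0.04 at week 40 and -0.15 at week 0. Since the list was chosen for large differences at week 0, its week 0 size is a description of the choice, and the standard error of a single feature's change was 0.0943 in the median.

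In the reverse direction, the 157 features called at week 40 had medians of 0.25, 0.24, 0.29, 0.27 and 0.32 at weeks 0, 4, 8, 24 and 40, and 154 of them had the same sign at week 0. The 79 called at week 40 and not at week 0 had a median of 0.28 at week 40 and 0.15 at week 0, with 76 of one sign at both weeks. The 35 called at week 0 and not at week 40 had a median of 0.18 at week 40 and 0.32 at week 0, with 34 of one sign. A list was therefore larger at the week that chose it in both cases.

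A list chosen on the high-fat arrays takes its strain differences from no chow array. The chow arrays do enter the shared spread and the filter, and the high-fat arrays of week 40 take part in the choice. There, 2336 features differed between strains over weeks 4 to 40 (11% of those tested), and 166 of them differed by over 0.3. On the chow arrays these 166 had medians of 0.28, 0.28, 0.32, 0.26 and 0.28 at weeks 0, 4, 8, 24 and 40. The sign was that of the high-fat arrays in 153 features at week 40 and in 155 at week 0. When the high-fat arrays of week 40 were left out of the choice, an alternative added after seeing the data, 1424 features were called (6.72%), 140 of them past 0.3, and the median of the 140 was 0.29 both at week 40 and at week 0. Between the first and the last chow week, the median of either list moved by less than the spread between numbers. A list median does not show how far single features moved.

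The replicate numbers did not contribute equally at week 40. In the 166 features the median was 0.21 for number 1, 0.30 for number 2 and 0.30 for number 3 at week 40, and 0.28, 0.25 and 0.27 at week 0. In the 113 features called at week 0 it was 0.28, 0.33 and 0.31 at week 40. Number 1 at week 40 holds the C57 array with the narrow spread. Without that array the median at week 40 was 0.34 in the 113 features and 0.32 in the 166.

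**Figure D3:**
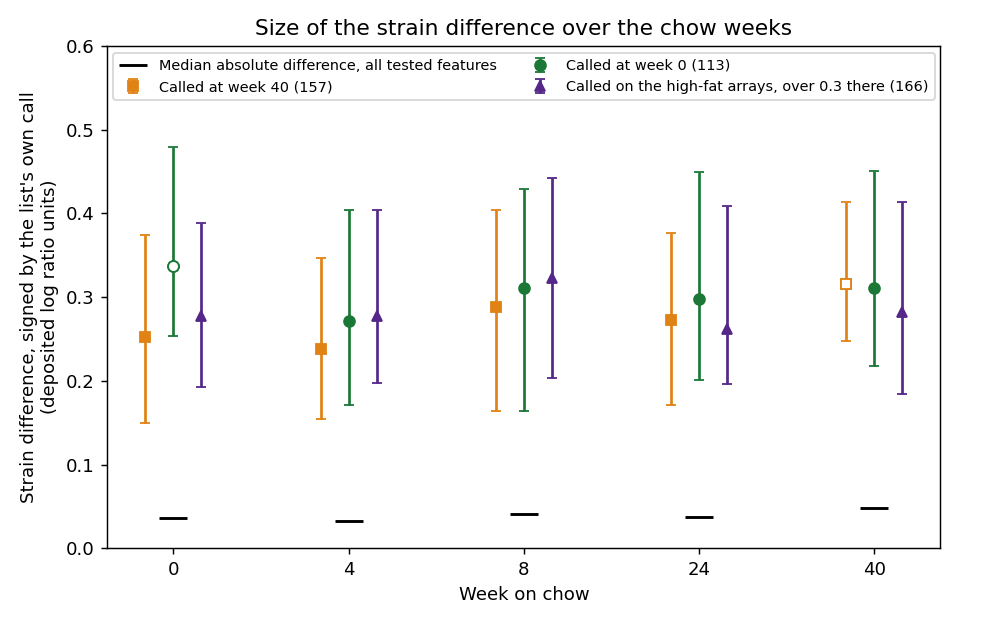
Median signed strain difference (points, deposited log ratio units) at each week on chow for 3 lists of features, with bars from the lower to the upper quartile; open points mark the week that chose the list, and black dashes are the median absolute difference of all tested features. The list chosen on the high-fat arrays (triangles) stays between 0.26 and 0.32 at all 5 weeks.

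Across features the strain difference at week 40 correlated with that at week 0 at 0.354 over all 21179 tested features, and at 0.842 over the 2336 features called on the high-fat arrays. These are descriptions: the points share arrays, and features are not independent. Number by number the picture was uneven. In number 1 the correlation between the weeks was -0.175 over all tested features and 0.572 over the 2336, and in number 3 it was 0.366 and 0.750. At week 40 the differences of number 1 correlated with those of number 2 at 0.108, and those of numbers 2 and 3 at 0.331.

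Whether a strain difference changed between week 0 and week 40 was tested directly. The limma fit called 0 of 21179 features (0%), with a lowest adjusted p of 0.753 and 393 features (1.86%) with an unadjusted p under 0.05. With the replicate number as a block it called 0 as well, with 870 unadjusted. Week 40 set against the mean of weeks 0 to 24 also gave 0 called in limma, with 266 unadjusted (1.26%), and 0 called with the block, with 799 unadjusted. With no change in any feature, a share of about 0.05 would fall under that threshold. Both fits without the block stayed below it, so they may be conservative. That 0 features were called does not show that the differences were kept. The intervals are wide: feature 4881 changed by -0.01 with a 95% interval from -0.57 to 0.55, and feature 17783 by -0.01 with an interval from -0.21 to 0.19. Of the 113 features called at week 0, 10 had an unadjusted p under 0.05 for the change. Among the 16 largest differences of week 40 the interval of the fit without the block left out 0 for feature 10555 alone, whose difference was -0.97 at week 40 and -0.72 at week 0 (change -0.25, interval -0.48 to -0.02), and that of the blocked fit left out 0 for features 10555 and 11527.

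**Figure D4:**
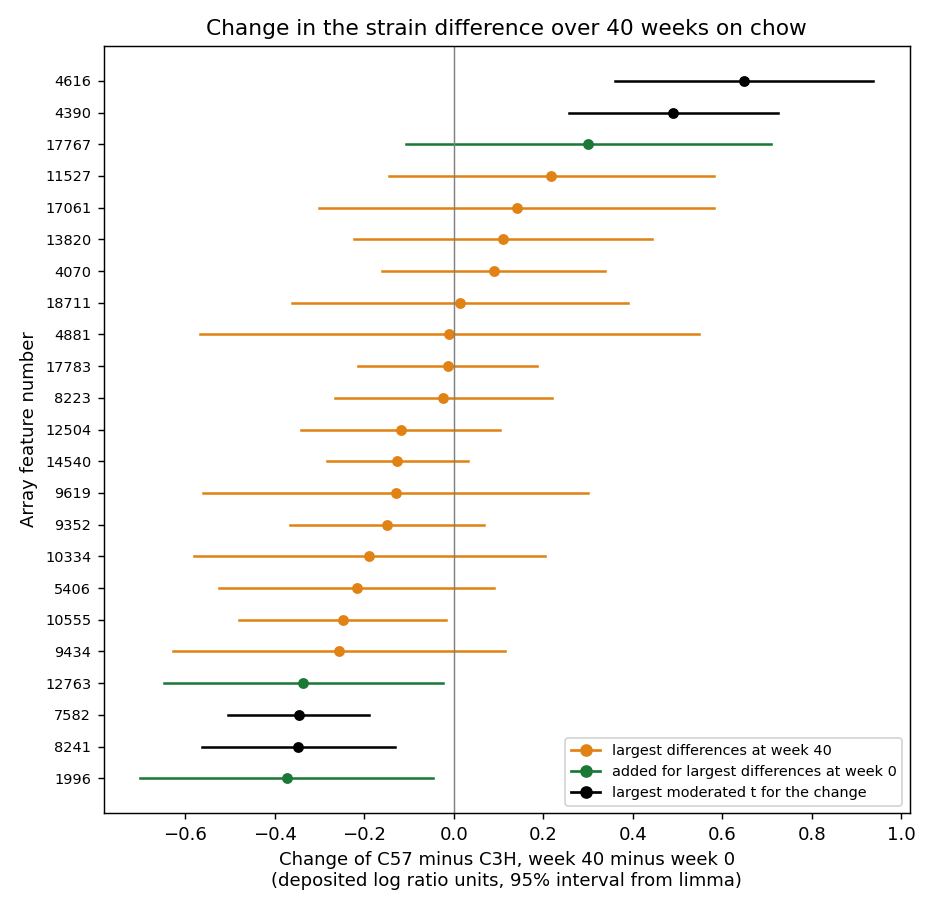
Change in the strain difference C57 minus C3H, week 40 minus week 0 on chow (horizontal axis, deposited log ratio units), with its 95% interval from limma without the replicate block, for 23 features named by rule. No change passed the adjusted threshold, and the intervals of features 4616, 4390, 7582, 8241, 10555, 12763 and 1996 leave out 0.

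The features with the largest test statistics for a change are given as values. Feature 4616 read 0.07, 0.53 and 0.50 in C57 and -0.13, -0.0011 and 0.01 in C3H at week 40, against -0.0020, 0.07 and -0.04 in C57 and 0.01, 0.60 and 0.15 in C3H at week 0. The difference was 0.41 at week 40 and -0.24 at week 0, and the change of 0.65 had an adjusted p of 0.753 in limma. Without C57 replicate 1 of week 40, the change was 0.79 (limma adjusted p = 0.0180). C57 replicates 2 and 3 at week 40 and C3H replicate 2 at week 0 were the high arrays. On the high-fat arrays of week 40 the same feature differed by 0.0011.

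Feature 4390 changed by 0.49, from arrays in which C3H replicate 2 was the lowest at week 40 and the highest at week 0. It read 0.07, -0.20 and -0.05 in C57 and -0.18, -0.58 and -0.12 in C3H at week 40, and the strains overlapped there. Feature 7582 read 0.06, 0.24 and 0.17 in C57 and 0.31, 0.39 and 0.37 in C3H at week 40, against 0.19, 0.17 and 0.26 in C57 and -0.02, 0.10 and 0.10 in C3H at week 0. Its strains were separated at both weeks in opposite directions, a change of -0.35, with the C3H arrays higher at week 40 than at week 0 and no call in the limma fit (adjusted p = 0.753). In feature 8241, C3H also stood higher at week 40, at 0.83, 0.64 and 0.63 against 0.39, 0.41 and 0.29 at week 0, while C57 averaged 0.28 at week 40 and 0.29 at week 0. The strain difference of feature 8241 was -0.42 at week 40 on chow and -0.42 on the high-fat arrays of week 40.

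Against the mean of weeks 0 to 24, the largest statistics were those of features 4616, 18956, 10095 and 7007. Feature 18956 rested on 1 array: it read 0.91 on C57 replicate 1 and 0.07 and 0.05 on the other C57 arrays, against 0.02, 0.02 and 0.12 on the C3H arrays. Its week 40 difference was 0.29 with that array and 0.0025 without it. Feature 10095 read 0.23, 0.22 and 0.27 in C57 and 0.50, 0.38 and 0.51 in C3H at week 40, a difference of -0.22 and a change of -0.19 from the mean of the earlier weeks. Feature 7007 was small throughout, with differences of -0.06 at week 40 and 0.05 at week 0.

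Some features called at week 0 passed through the opposite sign in between. These 6 features, numbers 1643, 9628, 10004, 12418, 17433 and 17767, were picked after their values were seen, as called at week 0 with the opposite sign past 0.2 at week 8, and are described with no test. Feature 10004 differed by 0.51, 0.17, -0.76, 0.34 and 0.32 at weeks 0, 4, 8, 24 and 40. At week 8 the C57 arrays of feature 10004 read 0.05, 0.01 and 0.02, and the C3H arrays 0.81, 1.02 and 0.52. Feature 17767 ran the other way, with -0.87, 0.11, 0.74, -0.32 and -0.57 at the same weeks. All 6 had the week 0 sign again at week 40, and only feature 17767 was called there. In features 1643, 9628, 12418 and 17433 the difference was 0.12, 0.10, 0.21 and 0.31 at week 40, against 0.35, 0.36, 0.56 and 0.67 at week 0.

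**Figure D5:**
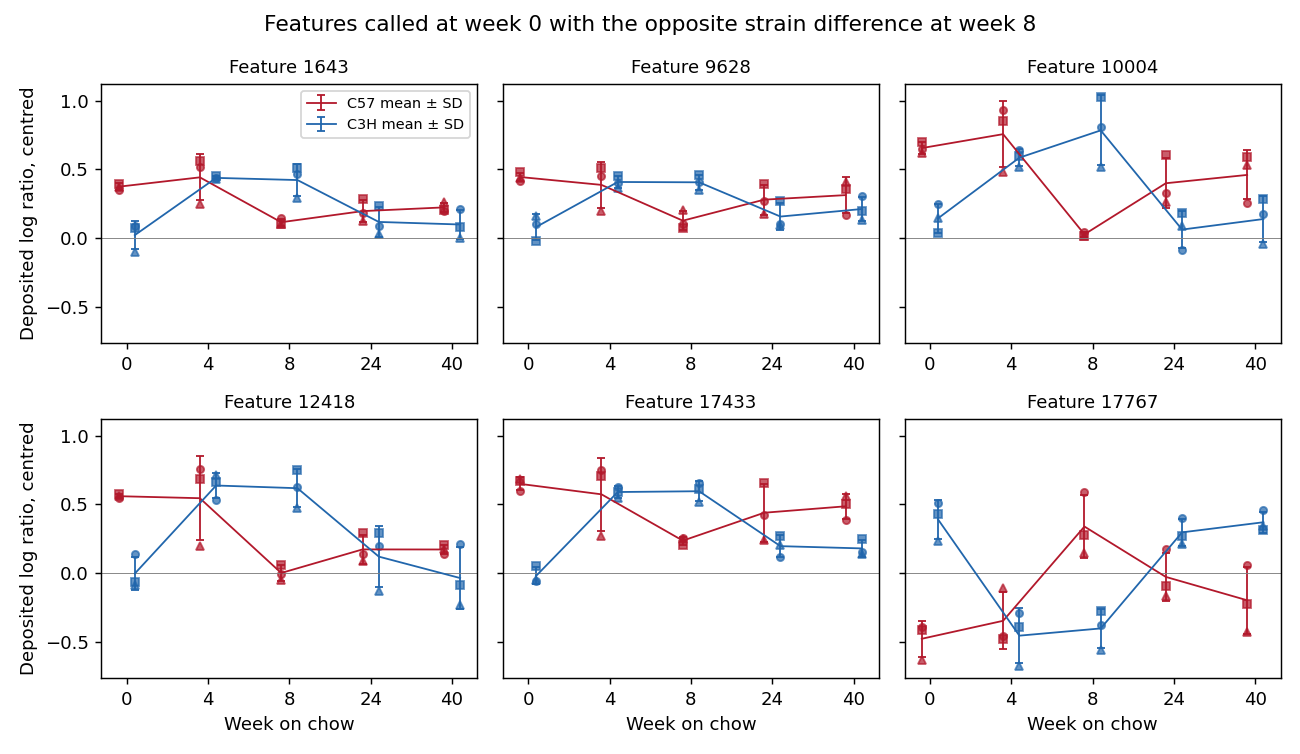
Centred deposited log ratio (vertical axis) of 6 features over the 5 weeks on chow, evenly spaced on the horizontal axis; points are arrays, lines join the means of 3 arrays and bars are SDs, with C57 in red and C3H in blue. The strains cross between weeks 0 and 8 and cross back by week 24, and at week 40 each feature has the order of week 0.

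The week 40 list was last read on that week's high-fat arrays, which are separate but share the fitted spread of each feature. Calls there are therefore not independent of the chow calls. Of the 157 features, 156 had the same sign there, against 65.3% of all tested features, and 110 were called, against a background of 2.01% (426 features). Their median signed difference was 0.31 on the high-fat arrays and 0.32 on the chow arrays that chose them. Feature 4070 differed by 0.89 on the high-fat arrays and 0.76 on chow, and feature 9352 by -1.34 on the high-fat arrays and -1.25 on chow. Feature 9434 was smaller on the high-fat arrays, at -0.40 (limma adjusted p = 0.114), and feature 17061 was 0.44 there (limma adjusted p = 0.161). With the block feature 17061 was called on the high-fat arrays (limma adjusted p = 7.74e-05) and feature 9434 was not (limma adjusted p = 0.0579). The high-fat count was 272 without C57 replicate 3, 258 without C3H replicate 1 and 200 without C3H replicate 2 of the high-fat arrays, and 1518 (7.17%) with the replicate block.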

How the data were processed

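The files hold the deposited log ratios of 21446 features on 54 arrays. The file headers do not state base or direction. Log10 is only the likely base, since no deposited value goes past 2 or -2. How arrays were scanned, background-corrected and normalized is not given in the sources used. Ratios hold no signal level, and precision is limited by the number of arrays. Groups and replicate numbers came from the titles; the source field lists another week where titles say 8, and the titles were followed.

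Exact zeros (7895, 0.682% of values) were taken as not measured. The median over the 20694 features with a value on every array was subtracted from each array. Before this, array medians lay between -0.0117 and 0.0118. A feature was tested (21179) if every one of the 18 groups had 2 or more values for it, and 267 were left out. Group means were fitted to all 54 arrays by lmFit and eBayes of limma 3.58.1 (R 4.3.3), two-sided, with Benjamini-Hochberg adjustment over 21179 features in each comparison. The change over time was the difference of the strain differences. The procedure was tested on simulated data.

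The features, lists and tests were chosen with earlier results of these data known. Named were the 8 largest differences in each direction at week 40 among called features with one sign in all 3 numbers, the 4 largest in each direction at week 0, and the 2 of each sign with the largest moderated t for each change over time; 3 of the 16 from week 40 not called at week 0 were singled out by size.

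The labels do not say what a replicate number stands for. Deviations from the group means of same-numbered C57 and C3H arrays correlated at 0.351, 0.226 and 0.554 at week 40 and at 0.253, 0.343 and 0.642 at week 0 for numbers 1, 2 and 3. All were over 0.1, so a fit with the number as a block was made beside the fit without it, which gave the headline counts. Blocked counts are given beside several of the results they move. At week 0, numbers 1 and 2 were not matched one to one: C57 replicate 2 correlated with C3H replicate 1 at 0.454. Number 3 stood apart there, as C57 replicate 3 correlated with C3H replicates 1 and 2 at -0.494 and -0.345. At week 40 each C57 array correlated most with the C3H array of its own number. The block is an effect of each number shared by all weeks and both diets, and does not pair the strains within a week. Between week 40 and week 0 the same numbers correlated at -0.128, 0.0485 and 0.569 in C57 and at 0.471, 0.132 and 0.667 in C3H. The 2 weeks may therefore not be independent readings. A fit with series as a random block let arrays of the same strain, diet and number correlate across weeks, estimated at 0.461. It called 112 features at week 40 and 86 at week 0. Alternatives covered the zeros, centring and scaling, the filter, the replicate number, the arrays used and each array left out. Gene lists and tissue markers were not tested, because names were not borne out.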

Additional observations from a re-analysis of the deposited data

How the results depend on the processing

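All 157 features called at week 40 and all 113 called at week 0 that an alternative tested kept their sign in it, and so did the difference by which each of 26 features was named. The replicate block raised the counts called to 686 at week 40, 441 at week 0 and 1518 at week 40 on high-fat diet, and a term for number 3 to 625, 411 and 1430. Array weights gave 370, 1055 and 1077. A fit to the arrays of the contrast alone, which leaves few arrays to estimate the spread, called 14, 31 and 8, and with the block as well 4, 21 and 3. On high-fat diet, quantile normalization gave 200, arrays scaled to one spread 135, and numbers 1 and 2 alone 1064. Leaving out 1 array at a time gave 88 to 129 at week 40, 57 to 87 at week 0 and 200 to 588 at week 40 on high-fat diet.

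The change from week 0 to week 40 was called in 1 feature with array weights (7582) and in 0 to 1 without 1 array. Week 40 against the earlier weeks was called in 1 feature in numbers 1 and 2 alone (22113, named after its values were seen, change -0.78) and in 0 to 1 without 1 array. Feature 4616 was the 1 called in both comparisons, without C57 replicate 1 of week 40. The median at week 40 of features called at week 0 was 0.186 with the replicate block, 0.191 with the number 3 term, 0.269 in numbers 1 and 2 alone, 0.342 with series as a random block, 0.487 and 0.522 in the arrays of the contrast alone, without and with the block, 0.134 with array weights, and 0.293 to 0.378 without 1 array; each of these settings also changes which features form the list. The cause of the other moves was not tested.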
